A study of Homo sapiens with 12 samples.

Results

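KM-H2 is a cell line of classical Hodgkin lymphoma, and the genes described here set it apart from the B-lineage lines Reh and Namalwa. A gene was taken as particular to KM-H2 when both of its KM-H2 libraries lay beyond all 4 control libraries and all 4 libraries of the Hodgkin lines L428 and L1236 lay within the control range. Of 13378 genes tested, 331 met this rule above the controls (2.47%) and 114 below them (0.852%), so 445 genes in all. With a gap of at least 1 on the log2 scale between the nearest KM-H2 library and the nearest control library, 174 genes remained above (1.30%) and 12 below (0.0897%). The rule used these values, so they are described without a test.

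The study compared RNA of cultured cell lines to learn which genes are active in Hodgkin lymphoma, with the wider aim of finding retroviral long terminal repeats (LTRs) that drive them. Total RNA depleted of ribosomal RNA was sequenced in 12 libraries, 2 from each of 6 groups. KM-H2, L428 and L1236 were the untreated Hodgkin lines, Reh was the untreated line of B-precursor leukaemia, and Namalwa was the untreated line of Burkitt lymphoma. The sixth group was Reh given 2 ng/ml phorbol ester (PMA), an activator of protein kinase C. The Hodgkin lines grew in a different medium (IMDM) from Reh and Namalwa (RPMI), so medium and lymphoma type cannot be told apart. Each group is 1 line, the labels do not say whether its libraries came from separate cultures, and p-values measure only the spread between these libraries. Libraries are called 0 and 1 after their columns.

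Values are FPKM, fragments scaled to transcript length and to sequencing depth, and differences are KM-H2 minus the mean of the Reh and Namalwa means of log2(FPKM + 1). The added 1 shrinks the differences of low genes, so they are not fold changes. KM-H2 was the shallowest line by the steps between its lowest values: a single fragment was worth 2.59 and 1.71 times its FPKM in Reh library 0, against 0.43 to 1.62 in the other libraries. The KM-H2 duplicates correlated at a Spearman rho of 0.937 across genes, against 0.981 in Reh and 0.973 in Namalwa. L428 library 1, L1236 library 1 and both PMA libraries listed the ribosomal protein gene RPL21 and the pseudogenes RPL13AP5 and RPL21P28 near 0. The other 8 libraries did not. RPL21 had 131 and 1756 FPKM in KM-H2 and at most 0.0474 in those 4 libraries. A value listed at 0 in this table can therefore be a failed estimate. In bulk RNA, fewer cells with a transcript and less of it per cell cannot be told apart.

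Classical Hodgkin lymphoma grows from Hodgkin and Reed-Sternberg cells, which descend from germinal centre B cells but have shut down most B-cell genes. Their survival rests on constant NF-kappaB, JAK-STAT and AP-1 signalling, and they secrete chemokines that draw in other immune cells. The label of KM-H2 was met by its markers. TNFRSF8, which encodes CD30, had 28.3 and 20.1 FPKM in KM-H2 and 0.0298 to 0.505 in the controls. CD22, an inhibitory receptor of B cells, had 1.75 and 3.44 in KM-H2 and 19 to 39.4 in the controls.

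The largest gaps of the KM-H2-only genes belonged to cancer-testis antigens, genes that are normally transcribed in the germ line and silent in other tissues. MAGEA4 led with 710.5 and 629 FPKM in KM-H2 and was listed at 0 in the other 10 libraries. CTAG2 had 128 and 99.7, MAGEA1 94.7 and 63.6, MAGEA10 60.5 and 26.1 and MAGEA6 27.9 and 25.8, and all were listed at 0 in the other 10 libraries. SSX1 had 61.4 and 44.1 FPKM against 0 to 0.103 in the controls and 0 to 0.0662 in L428 and L1236. PASD1, another testis antigen of the X chromosome, had 17.8 and 26.1 against 0 to 0.0672 in the controls. The rule and the ranking by gap chose these genes, so their distance from the control and other Hodgkin libraries was set by the choice. On the GRCh37 build MAGEA4 lies at chrX:151080967-151093643, plus strand, MAGEA1 at chrX:152481520-152486116, minus strand, MAGEA10 at chrX:151301782-151307050, minus strand, MAGEA6 at chrX:151867214-151870825, plus strand, CTAG2 at chrX:153880246-153881853, minus strand and SSX1 at chrX:48114827-48126879, plus strand. All are annotated as protein-coding. Reads of near-identical copies can be split between genes: MAGEA6 was high while its close copy MAGEA3 had 0.341 and 0.111 FPKM, and the same doubt holds for SSX genes and for CTAG2.

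Promoters of cancer-testis genes are known targets of DNA methylation, which was not measured here. The 250 bases before the start of 3 of these genes are shown because the genes were high in KM-H2 together, and CpG pairs, the bases that can be methylated, are in capitals. They are RefSeq sequences of build GRCh38.p14, written 5′ to 3′ on the strand of the gene. The MAGEA4 window is chrX:151912224-151912473, plus strand, the MAGEA6 window chrX:152769690-152769939, minus strand and the SSX1 window chrX:48255142-48255391, plus strand. The MAGEA6 strand differs between the annotations of both builds.
MAGEA4: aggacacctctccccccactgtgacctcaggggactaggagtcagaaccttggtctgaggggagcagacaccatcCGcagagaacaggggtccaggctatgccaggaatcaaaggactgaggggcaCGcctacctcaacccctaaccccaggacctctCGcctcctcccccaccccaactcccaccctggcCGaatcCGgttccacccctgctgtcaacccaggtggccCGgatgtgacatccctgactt
MAGEA6: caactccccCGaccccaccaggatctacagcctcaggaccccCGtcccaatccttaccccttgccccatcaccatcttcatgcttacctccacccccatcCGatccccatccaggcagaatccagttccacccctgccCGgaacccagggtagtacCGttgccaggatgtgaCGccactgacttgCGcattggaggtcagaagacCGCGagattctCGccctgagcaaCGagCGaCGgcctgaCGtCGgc
SSX1: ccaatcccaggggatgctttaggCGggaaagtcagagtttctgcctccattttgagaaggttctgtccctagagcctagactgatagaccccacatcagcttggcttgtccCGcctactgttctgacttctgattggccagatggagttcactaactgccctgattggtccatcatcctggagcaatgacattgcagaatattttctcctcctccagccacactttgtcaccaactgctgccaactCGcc
The windows held 6, 15 and 3 CpG pairs, searched as CG, which reads alike on both strands. Among 27305 promoters of the same length in the RefSeq table, 93.6% held at least 1 CpG and the median was 11.

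The families of these antigens were then counted whole, a choice made after their values were seen. The table held 101 genes of the MAGEA, MAGEB, MAGEC, SSX, CTAG, GAGE, PAGE, XAGE, SPANX, CT45, CT47 and CSAG families. In KM-H2, 14 of them had at least 1 FPKM in both libraries, against 5 in L428, 3 in L1236 and none in Reh or Namalwa. These 14 were also the only ones that passed the filter on low values, which they passed through KM-H2 alone. The KM-H2-only rule was met by 10 of the 14, against 177 of all 954 genes that passed the filter in this way. Within families the pattern was uneven. MAGEC2 had 9.29 and 7.01 FPKM in KM-H2, MAGEB17 4.22 and 7.89 and SSX7 7.02 and 7.17, while all 11 CT47 genes were listed at 0 in all 12 libraries. Some members were shared with the other Hodgkin lines: MAGEB2 had 112 and 119 in KM-H2, 32 and 28.6 in L428, 32.2 and 38.3 in L1236 and 0 in the controls. CT45A10 was higher in L428, with 1.6 and 5.99 in KM-H2 and 91.8 and 43.8 in L428.

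**Figure D1:**
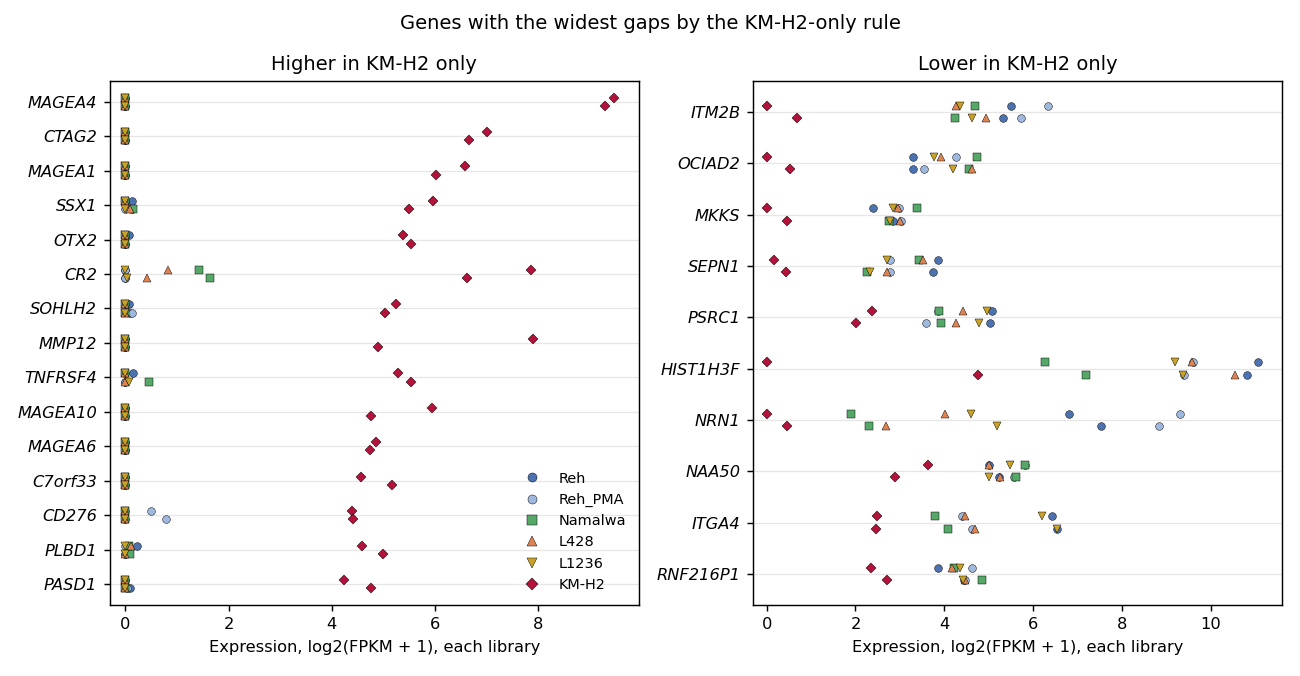
Expression as log2(FPKM + 1) on the x axis, 1 point a library, for the 15 higher (left) and 10 lower (right) KM-H2-only genes with the widest gaps. The rule chose genes whose KM-H2 points (red diamonds) stand apart from every control and other Hodgkin library. PMA-treated Reh is plotted but did not enter the rule.

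The other leading KM-H2-only genes encoded transcription factors, receptors and secreted proteins of several lineages. OTX2, a homeobox factor of the developing brain and eye, had 40.4 and 45.3 FPKM in KM-H2 and 0 to 0.0573 in the controls. SOHLH2, a helix-loop-helix factor of germ cells, had 37.1 and 31.5 against 0 to 0.059. Both were listed at 0 in L428 and L1236. Further developmental factors, singled out after their values were seen, were POU3F4 with 18 and 9.25, LHX8 with 5.65 and 6.38 and SPIC, an ETS factor of red pulp macrophages, with 7.62 and 15.2 FPKM. These 3 were listed at 0 in the 10 other libraries.

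CR2, the complement receptor CD21 of mature B cells, had 231 and 97.7 FPKM in KM-H2. It was listed at 0 in Reh, had 1.68 and 2.12 in Namalwa and 0 to 0.764 in L428 and L1236. TNFRSF4, the costimulatory receptor OX40 of activated T cells, had 38.1 and 45.3 against 0 to 0.375 in the controls. CD276, the B7 family ligand B7-H3, had 20.1 and 20.3 in KM-H2 and was listed at 0 in the controls and the other Hodgkin lines. The KM-H2-only rule chose these receptors, so their separation from the other lines was set by the choice.

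MMP12, the macrophage elastase, had 238 and 28.7 FPKM in KM-H2 and was listed at 0 elsewhere, so its duplicates differed widely although both were high. PLBD1, a phospholipase-like lysosomal protein, had 23.1 and 30.9 against 0 to 0.174. The uncharacterised C7orf33 had 22.6 and 35 and was at 0 elsewhere. SPARC, a matrix glycoprotein named here after its values were seen, had 52.4 and 42.9 in KM-H2, 1.85 and 2.63 in Reh, 0 in Namalwa and at most 0.0484 in L428 and L1236.

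Genes lower in KM-H2 only were fewer and their gaps were smaller. The median gap was 0.27 on the log2 scale over the 114 lower genes and 1.04 over the 331 higher genes. ITM2B, a membrane protein found in most cell types, was the leader with 0 and 0.60 FPKM in KM-H2, 17.9 to 44 in the controls and 18.1 to 29.4 in L428 and L1236. OCIAD2 had 0 and 0.445 against 8.76 to 25.5 in the controls, and the chaperonin-like MKKS 0 and 0.371 against 4.27 to 9.41. These 3 genes were near or at 0 in KM-H2 and well measured in every other library. SEPN1, which encodes selenoprotein N, had 0.13 and 0.344 against 3.81 to 13.4.

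ITGA4, the alpha-4 integrin used by lymphocytes to bind vessel walls, had 4.57 and 4.53 FPKM in KM-H2. It had 85 and 92.5 in Reh, 12.7 and 15.8 in Namalwa, 21.1 and 24.8 in L428 and 72.1 and 92.2 in L1236. NRN1, a neuritin, had 0 and 0.371 in KM-H2, but its controls were far apart, at 111 and 182 in Reh and 2.72 and 3.94 in Namalwa. PSRC1, a spindle protein, had 4.14 and 3.06 against 13.6 to 32.9. The acetyltransferase NAA50 had 11.5 and 6.37 against 31 to 55.5, and the pseudogene RNF216P1 4.06 and 5.5 against 13.5 to 28. INPP5D, the phosphatase SHIP1 that restrains B-cell receptor signalling, and RBM28 completed the 12 genes with a gap of at least 1, beside the histone gene HIST1H3F described further on. INPP5D had 2.58 and 4.18 FPKM in KM-H2 against 9.6 to 23.1 in the controls.

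Of the 331 higher genes, 177 passed the filter on low values through KM-H2 alone, so they had to lie above the controls. For 80 of them the 4 control libraries and the 4 libraries of L428 and L1236 were all listed at 0. The rule turned on small values at its edge. CTNNB1, the beta-catenin gene, lay just inside with 101 and 91.6 FPKM in KM-H2 and a highest control value of 91.6. HSDL2 lay just outside with 24.9 and 20 and a highest control value of 20.1. On the lower side TMEM86B was just inside, with 1.17 and 0.872 and a lowest control value of 1.18, and KIAA0195 just outside, with 5.04 and 3.43 and a lowest control value of 5.04.

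The counts moved with the width of the control range and with the libraries used. Widening the range by 0.1 on the log2 scale for L428 and L1236 gave 497 higher and 239 lower genes. Leaving out the 2 libraries of L428 and L1236 with RPL21 near 0 gave 560 and 294. The count of lower genes was 199 without KM-H2 library 0, 202 without KM-H2 library 1, 182 without L428 library 0 and 184 without L428 library 1, and the count with a gap of at least 1 was 23, 20, 20 and 17. With FPKM of at least 5 in 2 libraries, 166 higher genes met the rule. With each library centred on its median, 131 higher genes met it and 15 with a gap of at least 1. Of the 217 that then no longer met it, 189 were listed at 0 in a control or other Hodgkin library, where centring shifts equal zeros apart. With the same rule applied to each Hodgkin line in turn over 14442 genes, KM-H2 had 331 higher and 115 lower genes, L428 had 186 and 113, and L1236 had 219 and 102.

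The libraries of PMA-treated Reh were not used by the rule. Of the 331 higher genes, 201 were under 1 FPKM in both PMA libraries and 26 were at or above the lower KM-H2 library in both. CD276 had 0.421 and 0.736 FPKM after PMA. MSRA, a methionine sulphoxide reductase chosen after its values were seen, had 14.9 and 13.1 after PMA, 3.21 and 4.14 in untreated Reh and 29.7 and 19.6 in KM-H2. Of the 114 lower genes, 101 were at or above the lower KM-H2 library in both PMA libraries, and 13 were at or below the higher KM-H2 library in both.

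Across all genes tested, KM-H2 differed widely from Reh and Namalwa. A gene was called when its adjusted p in limma was under 0.05, its difference was at least 1 on the log2 scale and both KM-H2 libraries lay beyond all 4 controls. By this, 2268 genes were higher (17.0%) and 1637 lower (12.2%). Without the p-value and the minimum difference, both KM-H2 libraries were above all 4 controls for 3464 genes (25.9%) and below them for 3164 (23.7%). With an adjusted p in limma under 0.05 and a difference of at least 1 as the criteria, 2503 genes were higher and 2275 lower against Reh alone, against Namalwa alone 2526 and 1922, and 1728 and 1028 were so against both. Of the 2268 genes called higher, 917 (40.4%) were above the controls in all 4 libraries of L428 and L1236 as well, and 286 (12.6%) were within the control range there. Of the 1637 called lower, 791 (48.3%) were also below the controls in all 4 and 65 (3.97%) were within the range. Of those called higher, 900 passed the filter on low values through KM-H2 alone, so their direction was fixed and no p-value is given for them below. Of the 12424 genes that passed it otherwise, 1368 were called higher (11%).

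**Figure D2:**
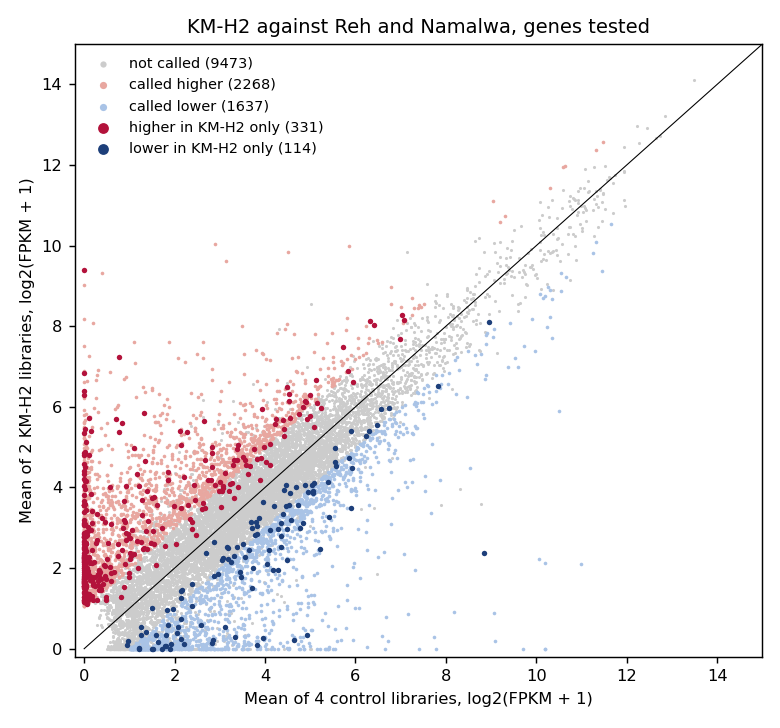
Mean log2(FPKM + 1) of the 2 KM-H2 libraries (y axis) against the mean of the 4 control libraries (x axis), 1 point for each of the 13378 genes tested, with equality as a line. Genes higher in KM-H2 only (dark red, 331) crowd at the left edge, where the controls are at or near 0; genes lower in KM-H2 only (dark blue, 114) lie closer to the line.

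Several of the largest rises in KM-H2 were shared with L428 and L1236. SRGN, the granule proteoglycan serglycin, had 891 and 1241 FPKM in KM-H2 against 3.4 to 12.2 in the controls and 67.7 to 213 in the other Hodgkin lines. It rose by 7.16 ± 0.24 on the log2 scale (adjusted p = 9.99e-06). EBI3, a subunit of the cytokines IL-27 and IL-35, had 312 and 235 against 0 to 0.362 and was 7.90 ± 0.21 higher on the log2 scale. GTSF1, a germ cell factor of the piRNA pathway, had 135 and 173 in KM-H2, 42.7 to 163 in L428 and L1236 and 0 to 0.333 in the controls.

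DHRS2, a short-chain dehydrogenase, had 1401 and 289 FPKM in KM-H2, so its duplicates differed widely. L428 had 60.5 and 134 and L1236 449 and 455. The controls had at most 0.926, and it was 8.93 ± 0.58 higher on the log2 scale. LINC01287, a long non-coding RNA, had 398 and 207 in KM-H2 and at most 0.174 in any other library. The cancer-testis genes MAGEB1 and MAGEB2 and the cytokine IL32, at 85.2 and 111 FPKM, also stood among the 10 largest rises, beside MAGEA4 and CTAG2 described above.

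The falls were led by histone genes of the replication-dependent clusters and by B-cell genes. HIST1H1D and HIST1H4F were listed at 0 in both KM-H2 libraries and had 720.0 to 1633 and 236 to 2561 FPKM in the controls. In L428 they were at or near 0 too, and in L1236 they had 534 and 898 and 426 and 605. The KM-H2 duplicates were uneven: HIST1H3F, HIST1H3C and HIST1H4D were at 0 in library 0 and had 26.3, 18.1 and 17.7 FPKM in library 1. Counted after their values were seen, 30 of 67 tested histone cluster genes were called lower (44.8%, against 12.2% of all genes tested) and none higher, and 5 were at 0 in both KM-H2 libraries. Their median was 363 and 144 FPKM in KM-H2, 754 to 1427 in the controls and 283 to 421 in the other Hodgkin lines, so the falls were not shared by every member. These genes are short and near-identical, and reads may be split between copies. HIST1H3F met the KM-H2-only rule, with 75.4 to 2133 FPKM in the controls and 583 to 1489.7 in L428 and L1236.

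Most genes of the B-cell programme fell. Of 25 genes of B-cell identity, 1 rose (4%, against 17.0% of all genes tested) and 16 fell (64%, against 12.2%), with a median difference of -2.99 against -0.02. CD79B, a signalling chain of the B-cell receptor, had 0 and 0.313 FPKM in KM-H2 and 394 to 889 in the controls, and fell by 8.89 ± 0.25 on the log2 scale (adjusted p = 7.57e-06). Its partner CD79A had 0 and 2.55 against 168 to 429. The levels of both were as low in L428 and L1236, at 0.154 to 0.794 for CD79A. PAX5, the factor that commits cells to the B lineage, had 1.84 and 0.446 in KM-H2, 52.5 to 77.8 in the controls and 33.8 and 19.8 in L1236, and fell by 4.96 ± 0.31 on the log2 scale (adjusted p = 4.43e-05).

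The kinases BTK and SYK, which carry the receptor signal, fell as well. BTK had 0 and 0.284 FPKM in KM-H2 and 39.8 to 57 in the controls, and SYK 2.89 and 1.9 and 43.1 to 120.2. SYK was nearer 0 in L428 and L1236, where it had at most 0.00927. VPREB3, a partner of the pre-B receptor, had 1.93 and 0 against 32.3 to 196 and fell by 5.89 ± 0.51 on the log2 scale (adjusted p = 0.000161). The factors POU2F2, SPIB, BCL11A and IKZF3 and the kinases LYN and BLK were not called. LYN had 14.7 and 8.41 FPKM in KM-H2, 3.89 and 2.12 in Reh and 24.8 and 19 in Namalwa, so KM-H2 lay between the controls. CR2 was the member that rose, and it was chosen by the KM-H2-only rule.

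Genes of B-cell precursors were also lower. Of 11 tested, none rose (against 17.0% of all genes tested) and 6 fell (54.5%, against 12.2%), with a median difference of -3.51. RAG1 and RAG2, the recombinase that joins immunoglobulin gene segments, had 0.0412 and 0.273 and 0 and 0.0656 FPKM in KM-H2 against 19.2 to 435 and 30.8 to 161 in the controls. RAG1 fell by 6.52 ± 0.27 on the log2 scale (adjusted p = 1.37e-05). IGLL1 and MME, which encodes CD10, were listed at 0 in both KM-H2 libraries and had 48 to 513 and 76.7 to 123 FPKM in the controls. LEF1, a WNT-responsive factor of precursor cells, fell less and had 52.5 and 32.9, against 57.7 to 243. DNTT, ERG and FLT3 were high in Reh and near 0 in both Namalwa and KM-H2, so the groups overlapped and they were not called.

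Of 16 genes of germinal centre and plasma cells, 2 rose (12.5%, against 17.0% of all genes tested) and 5 fell (31.2%, against 12.2%), and 1 of the 2 passed the filter through KM-H2 alone. BCL6, the master repressor of the germinal centre, had 6.01 and 5.79 FPKM against 28.2 to 51.5 and fell by 2.62 ± 0.20 on the log2 scale (adjusted p = 9.07e-05). MZB1 had 0 and 2.3 against 97.3 to 256, and CD38 was listed at 0 in KM-H2 against 33.5 to 51.6. IRF4, a factor of plasma cell fate, had 133 and 74.8 in KM-H2, 1.17 and 0.60 in Reh, 23.7 and 29 in Namalwa and 123 to 194 in the other Hodgkin lines. It rose by 3.82 ± 0.28 on the log2 scale (adjusted p = 8.15e-05), and with the 4 controls as 1 group the call was lost (adjusted p = 0.0874). The same setting ended the call of GCSAM, which had 1.34 and 1.65 in KM-H2 and 6.94 to 88.5 in the controls (adjusted p = 0.0508 against 9.3e-05).

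Of 16 inhibitors of B-cell factors and factors of other lineages, 6 rose (37.5%, against 17.0% of all genes tested) and 2 fell (12.5%, against 12.2%), and 3 of the 6 passed the filter through KM-H2 alone. MSC, which encodes the E-protein inhibitor ABF-1, had 33.1 and 21.5 FPKM in KM-H2, 0 in the controls and 16.9 to 101 in L428 and L1236, and was 4.79 ± 0.22 higher on the log2 scale. TCF7, a T-cell factor, had 27 and 11 in KM-H2, 38 and 41.2 in L1236, 1.21 and 0.168 in L428 and 0.362 to 1.62 in the controls. ID2 rose by 2.82 ± 0.52 on the log2 scale (adjusted p = 0.00418), from 8.48 to 20.1 in the controls to 202 and 48.6 in KM-H2. ID3, another inhibitor of E proteins, went down, with 21.6 and 13.4 against 154 to 388. SPI1, the PU.1 gene of B and myeloid cells, was listed at 0 in both KM-H2 libraries and in all 4 libraries of L428 and L1236, with 22.4 to 33.8 in the controls. NOTCH1 had 4.66 and 5.2 FPKM in KM-H2 and 2.26 to 7.52 in the controls and was not called.

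**Figure D3:**
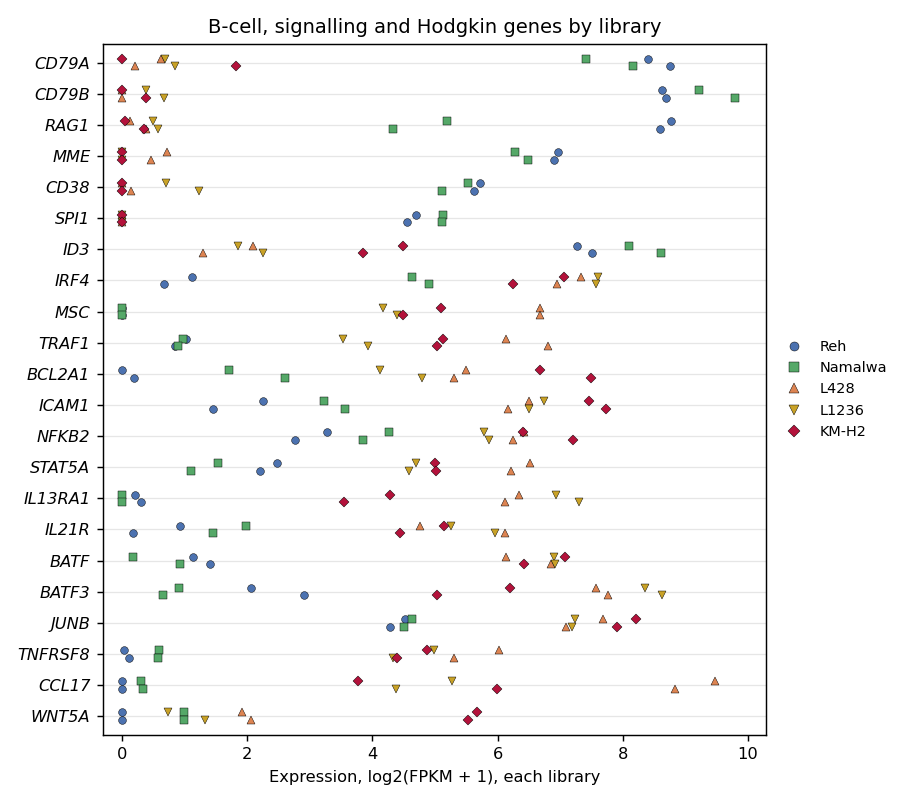
Expression as log2(FPKM + 1) on the x axis, 1 point a library, for 22 genes of the B-cell, signalling and Hodgkin programmes. KM-H2 (red diamonds) lies with L428 and L1236 (triangles) and away from Reh and Namalwa for most of them, while WNT5A is highest in KM-H2 and BATF3 and CCL17 are lower there than in at least 1 other Hodgkin line.

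NF-kappaB is a family of factors held in the cytoplasm by inhibitors until a receptor frees them. Of 24 genes of the pathway, 12 rose (50%, against 17.0% of all genes tested) and none fell (against 12.2%), with a median difference of 1.20. Among the subunits, NFKB2 had 83.7 and 147 FPKM in KM-H2 against 5.83 to 18.2 in the controls and rose by 3.26 ± 0.29 on the log2 scale (adjusted p = 0.00019). REL and NFKB1 rose by 1.15 and 1.10, and RELA, at 15.4 and 32 against 18.5 to 21.8, was not called. The inhibitor NFKBIA rose, with 159 and 134 against 19.1 to 77.3. TNFAIP3, the feedback inhibitor A20, had 5.07 and 16.6 in KM-H2, 95.2 and 73.8 in Reh, 2.12 and 1.13 in Namalwa and 246 and 355 in L428, and was not called.

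Among the targets, BCL2A1, an inhibitor of apoptosis, had 102 and 179 FPKM in KM-H2, 0 to 5.07 in the controls and 16.4 to 44 in the other Hodgkin lines. It rose by 5.96 ± 0.33 on the log2 scale (adjusted p = 3e-05). The adhesion molecule ICAM1 had 176 and 212 against 1.75 to 10.8 and rose by 4.97 ± 0.27 on the log2 scale (adjusted p = 2.69e-05). TRAF1, an adaptor of TNF receptors, had 33.9 and 31.8 against 0.804 to 1.02. CD83, a marker of activated antigen-presenting cells, had 198 and 129 in KM-H2, 48.3 and 52 in L428 and 3.18 and 2.49 in L1236, which lay below the controls (9.61 to 21.1). TRAF3, a brake on the alternative pathway, met the KM-H2-only rule with 23.1 and 16.2 against 4.26 to 12.2 in the controls and 5.41 to 12 in the other Hodgkin lines.

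Of 22 JAK-STAT genes, 12 rose (54.5%, against 17.0% of all genes tested) and none fell (against 12.2%), with a median difference of 1.14, and 2 of the 12 passed the filter through KM-H2 alone. Among the receptors, IL13RA1 had 18.5 and 10.6 FPKM in KM-H2, 0 to 0.242 in the controls and 68.8 to 156 in L428 and L1236, and was 3.78 ± 0.24 higher on the log2 scale. IL21R had 34.5 and 20.7 against 0.128 to 2.94 in the controls. Its ligand gene IL21 met the KM-H2-only rule at a low level, 1.19 and 1.24 FPKM against 0 in the 8 other libraries of the 4 other lines. Among the kinases, JAK3 had 34 and 20.9 against 1.16 to 4.84 and rose by 2.85 ± 0.29 on the log2 scale (adjusted p = 0.000327), and JAK2 had 5.84 and 4.99 against 1.06 to 5.06 and was not called, while it had 52.4 to 53.1 in L1236. STAT5A had 31.1 and 31.5 against 1.15 to 4.54 and rose by 3.18 ± 0.21 on the log2 scale (adjusted p = 5.3e-05). STAT3, STAT6 and STAT5B were not called.

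The feedback inhibitors differed. SOCS1 had 27.4 and 19.7 FPKM against 0.906 to 4.69 in the controls and 21.5 to 61.2 in L428 and L1236, and rose by 3.10 ± 0.30 on the log2 scale (adjusted p = 0.000247). SOCS2 met the KM-H2-only rule, with 38.6 and 43 in KM-H2, 19 and 18.9 in Reh, 0.0789 and 0.269 in Namalwa and 3.46 to 9.13 in the other Hodgkin lines. SOCS3 and CISH were low in KM-H2, at 0.928 and 3.11 and 0.409 and 1.25, and did not pass the filter, whereas L428 had 26.6 and 11.2 for CISH.

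AP-1 factors are dimers of FOS, JUN, ATF and BATF proteins. Among 11 tested, 7 rose (63.6%, against 17.0% of all genes tested) and 1 fell (9.09%, against 12.2%), with a median difference of 1.58, and 1 of the 7 passed the filter through KM-H2 alone. BATF had 134 and 84.6 FPKM in KM-H2 against 0.133 to 1.66 in the controls and rose by 5.83 ± 0.30 on the log2 scale (adjusted p = 2.27e-05). BATF3 had 72 and 31.9 in KM-H2 against 0.577 to 6.54, and was higher in L428 and L1236, at 189 to 395. JUNB had 295 and 239 against 18.6 to 23.9 and rose by 3.57 ± 0.21 on the log2 scale (adjusted p = 3.29e-05). ATF3 had 35.9 and 52.7 against 2.41 to 6.42. The small MAF protein MAFK fell, with 4.24 and 5.25 against 9.2 to 20.

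Of 17 chemokines and cytokines tested, 10 rose (58.8%, against 17.0% of all genes tested) and 1 fell (5.88%, against 12.2%), and 12 others did not pass the filter. Of the 10, 6 passed it through KM-H2 alone. CXCL10, a T-cell attractant induced by interferon, had 145 and 81.9 FPKM in KM-H2 against 0 to 0.558 in the controls, and was 6.50 ± 0.26 higher on the log2 scale. CCL5 had 126 and 175 against 3.68 to 6.38 and rose by 4.61 ± 0.25 on the log2 scale (adjusted p = 2.8e-05). CCL17, the attractant TARC of T helper and regulatory cells, was uneven between the KM-H2 duplicates, at 12.6 and 62.7, with 705 and 454 in L428, 37.7 and 19.8 in L1236 and 0 to 0.267 in the controls. It was 4.72 ± 0.55 higher on the log2 scale. CCL2 was listed at 0 in KM-H2 and had 526 and 584 in L1236. LTB, lymphotoxin beta, fell, with 0 and 0.496 against 4.24 to 91.2, and LTA rose, with 54.4 and 48.4 against 0.188 to 10.6.

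Of 25 receptors and costimulatory molecules tested, 16 rose (64%, against 17.0% of all genes tested) and 6 fell (24%, against 12.2%), and 9 of the 16 passed the filter through KM-H2 alone. IL1R2, a decoy receptor for interleukin 1, had 77.8 and 69.9 FPKM in KM-H2, 0 to 0.457 in the controls and 64.8 to 166 in L428 and L1236, and was 5.97 ± 0.18 higher on the log2 scale. TNFRSF9, the receptor 4-1BB, had 23.4 and 22.6 in KM-H2, 2.64 to 9.67 in L428 and L1236 and 0 to 0.0198 in the controls. The checkpoint ligand CD274 (PD-L1) had 2.48 and 2.63 in KM-H2 against 0.0642 to 0.232 and 29.9 to 33.1 in L1236. The chemokine receptor CCR7 had 29.5 and 22.8 against 0.506 to 1.59 and rose by 3.78 ± 0.21 on the log2 scale (adjusted p = 2.8e-05).

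IL7R, the interleukin 7 receptor of precursor cells, fell, with 0.0635 and 0.0419 FPKM against 146 and 183 in Reh and 6.11 and 4.54 in Namalwa. With the 4 controls as 1 group the call was lost (adjusted p = 0.0716). FCGR2B, the inhibitory Fc receptor of B cells, and CXCR5, the receptor that guides B cells to follicles, met the KM-H2-only rule beside TNFRSF4. FCGR2B had 11.4 and 13.2 in KM-H2, 0 to 8.67 in the controls and 0 to 5.01 in L428 and L1236, and CXCR5 had 2.71 and 2.67, 0 to 1.76 and 0.0274 to 0.366.

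Of 19 receptor tyrosine kinases tested, 8 rose (42.1%, against 17.0% of all genes tested) and 1 fell (5.26%, against 12.2%), and 5 of the 8 passed the filter through KM-H2 alone. PDGFRA, a receptor of mesenchymal cells, had 15.1 and 11.7 FPKM in KM-H2 and at most 0.058 in every other library. It was 3.83 ± 0.18 higher on the log2 scale, and it missed the KM-H2-only rule because both L428 libraries and L1236 library 1 lay above the highest control, at 0.0228, 0.058 and 0.0413 against 0.0159. MET had 18.2 and 11.4 in KM-H2 against 0 to 0.205, and 61.3 to 67.6 in L428. The collagen receptor DDR2 had 15.8 and 13.9, and 14.4 and 19.2 in L1236. INSR, the insulin receptor, fell, with 0 and 0.0197 against 10.1 to 46.5.

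WNT proteins are secreted ligands of frizzled receptors. Of 18 genes of the pathway tested, 5 rose (27.8%, against 17.0% of all genes tested) and 5 fell (27.8%, against 12.2%), and 3 of the 5 that rose passed the filter through KM-H2 alone. WNT5A, a ligand that acts without beta-catenin, had 49.8 and 45.1 FPKM in KM-H2, was listed at 0 in Reh and had 0.997 and 0.982 in Namalwa, 2.8 and 3.19 in L428 and 0.661 and 1.52 in L1236. It was 5.10 ± 0.17 higher on the log2 scale, and since both L428 libraries and L1236 library 1 lay above the controls it did not meet the KM-H2-only rule. WNT10A did, with 47.3 and 34.1 in KM-H2, 0 to 2.68 in the controls and 0.81 to 1.26 in the other Hodgkin lines. WNT10B had 5.9 and 6.3 against 0.0472 to 0.371 and was 2.58 ± 0.15 higher on the log2 scale. WLS, the carrier that brings WNT proteins to the cell surface, was not on the list and was singled out after its values were seen: it met the KM-H2-only rule with 10.5 and 11.7 FPKM against at most 0.0444 in the controls. The co-receptors LRP5 and LRP6 fell, LRP6 from 2.38 to 5.88 in the controls to 0 and 0.0354. FZD8 was listed at 0 in KM-H2 with 3.62 and 5.01 in Reh and 0.0675 and 0.0384 in Namalwa.

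The study took up 6 genes in connection with LTRs on these same lines, so their direction is not independent evidence. It described WNT5A, NLRP1, TNFRSF11A and CSF1R as transcribed from LTRs. The other members are regulators: CBFA2T3, a corepressor whose loss went with LTR activity, and NFIX, a factor acting on the TNFRSF11A LTR. Of the 6, 4 rose (66.7%, against 17.0% of all genes tested) and 1 fell (16.7%, against 12.2%), and 3 of the 4 passed the filter through KM-H2 alone. Besides WNT5A, NLRP1, an inflammasome sensor, had 25.2 and 37.8 FPKM against 1.26 to 6.01 and rose by 2.95 ± 0.24 on the log2 scale (adjusted p = 0.000116). TNFRSF11A, the receptor RANK, had 4.26 and 4.78 in KM-H2, 9.76 and 14.5 in L428, 61.5 and 51.8 in L1236 and 0 to 0.589 in the controls, and was 2.14 ± 0.15 higher on the log2 scale. CSF1R, the receptor of the macrophage growth factor, had 1.13 and 2.05 in KM-H2 against 0.114 to 0.285 in the controls. It had 1.1 and 0.665 in L428 and 0.463 and 0.246 in L1236, so L1236 library 1 lay within the control range. Reh after PMA had 11.8 and 11.2. In KM-H2 CSF1R was 1.11 ± 0.18 higher on the log2 scale than in the untreated controls. CBFA2T3, a corepressor, fell, with 0.315 and 0.457 against 1.83 to 6.68 and 0 in L428 and L1236. NFIX had 1.43 and 0.748 against 7.31 and 7.03 in Reh and 0.0378 and 0.043 in Namalwa and was not called.

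Antigen presentation genes of class I and class II had median differences of 0.71 and 0.62, and whether the lists differ was not tested. Of 15 class I genes, 7 rose (46.7%, against 17.0% of all genes tested) and none fell (against 12.2%). TAP1, a subunit of the peptide transporter, had 109 and 124 FPKM against 20.5 to 32.1 and rose by 2.17 ± 0.23 on the log2 scale (adjusted p = 0.000384), and HLA-F had 79.6 and 80.2 against 25.5 and 25.6 in Reh and 0 in Namalwa. With the 4 controls as 1 group the calls of HLA-F and HLA-E were lost (adjusted p = 0.126 and 0.119), and TAPBP was lost when either KM-H2 library was left out (adjusted p = 0.0901 and 0.0627). Of 16 class II genes, 1 rose (6.25%, against 17.0% of all genes tested) and none fell (against 12.2%). The member that rose was HLA-DPB1, with 46.7 and 35.5 against 8.83 to 24.1, whose call was also lost with the 4 controls as 1 group (adjusted p = 0.0666). CIITA, the switch of class II genes, had 40.1 and 17 against 10.3 to 21.1 and was not called. HLA genes vary between people and their reads can be misplaced.

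Of 29 interferon-stimulated genes, 8 rose (27.6%, against 17.0% of all genes tested) and 1 fell (3.45%, against 12.2%), with a median difference of 0.30. Of the 8, 1 passed the filter through KM-H2 alone, GBP2. GBP2, an interferon-induced GTPase, had 3.87 and 9.6 FPKM against 0 to 0.103 and was 2.78 ± 0.30 higher on the log2 scale, and the RNA sensor IFIH1 12.6 and 22.6 against 2.26 to 4.85. MX1, an antiviral GTPase, had 0 and 0.432 in KM-H2, 10.6 to 30.7 in the controls and 58.6 and 128 in L1236, and fell by 3.74 ± 0.41 on the log2 scale (adjusted p = 0.000427).

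Of 25 genes of the cell cycle and apoptosis, 1 rose (4%, against 17.0% of all genes tested) and 9 fell (36%, against 12.2%). The D cyclins changed places: CCND2 had 159 and 82.5 FPKM in KM-H2 against 0 to 1.57 and rose by 6.28 ± 0.30 on the log2 scale (adjusted p = 1.89e-05), while CCND3 had 11.3 and 17.1 against 127 to 257 and fell by 3.63 ± 0.25 on the log2 scale (adjusted p = 6.83e-05). Both lay on the same side of the controls in L428 and L1236, where CCND2 had 62.5 to 247 and CCND3 11.3 to 28.3. BID, which triggers apoptosis, had 1.21 and 0.789 against 12.1 to 33.8. RB1 and MDM2 fell by 1.30 and 1.32 on the log2 scale. CDKN2A had 0 and 1.04 in KM-H2, 0 in Reh and 58.2 and 57.1 in Namalwa.

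**Figure D4:**
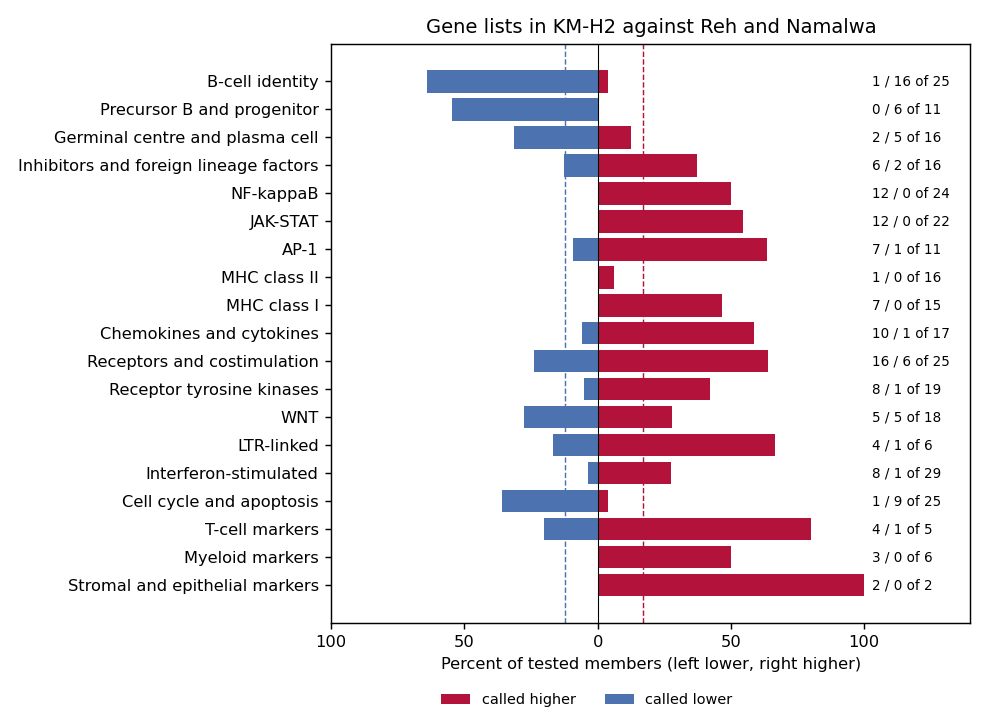
Share of the tested members of each gene list called lower (blue, left) and higher (red, right) in KM-H2 against Reh and Namalwa, with the counts (higher / lower of tested) at the right. Dashed lines mark the shares over all genes tested, 12.2% lower and 17.0% higher; B-cell lists lie on the left, and the signalling, chemokine and receptor lists on the right.

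Over the 19 lists together, 105 of 302 distinct members tested rose (34.8%) and 55 fell (18.2%), against 17.0% and 12.2% of all genes tested. Of the 105, 38 passed the filter through KM-H2 alone, and of the 264 members that passed it otherwise, 67 rose (25.4%, against 11%). Among the 105, 63 (60%) were above the controls in all 4 libraries of L428 and L1236 too, and of the 55 that fell, 40 (72.7%) were below them. The KM-H2-only rule was met by 14 members (4.64%, against 2.47% of all genes tested), all of them higher.

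Markers of other blood and tissue cells were checked because KM-H2 held transcripts of several lineages. Of 5 T-cell markers tested, 4 rose (80%, against 17.0% of all genes tested) and 1 fell (20%, against 12.2%), and the 4 passed the filter through KM-H2 alone. CD4 had 54.5 and 46 FPKM, CD3D 13.5 and 22.5, CD3G 3.25 and 2.85 and ZAP70 6.8 and 8.67 in KM-H2. CD3D was at 0 in the 8 other libraries of the 4 other lines, and CD3D, CD3G and ZAP70 met the KM-H2-only rule. CD3E had 0.197 and 0, CD2 0.779 and 1.01, CD5 0.0886 and 0.175, and CD7 and CD8A were at 0. LCK, the kinase beside the T-cell receptor, fell, with 0 and 0.0894 against 3.14 to 7.2. The summed level of the 10 markers in the table was 79.1 and 81.2 FPKM in KM-H2, 3.27 to 7.37 in the controls and 0.221 to 2.78 in L428 and L1236.

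Of 13 myeloid markers, 6 were tested. Of these, 3 rose (50%, against 17.0% of all genes tested) and none fell (against 12.2%), and 2 of the 3 passed the filter through KM-H2 alone. CD14 had 5.79 and 4.56 and ITGAM 9.14 and 4.24 in KM-H2, and both met the KM-H2-only rule. ITGAX had 2.01 and 7.66. LYZ, the lysozyme of monocytes, had 0.591 and 0.255, and MPO, S100A8, S100A9 and ELANE were at 0 in KM-H2. The summed level was 20.1 and 24.1 FPKM in KM-H2, 31.7 and 37.3 in Reh, where MPO had 24.8 and 32, and 0.209 to 1.31 in Namalwa. In L428 it was 29.4 and 21.6, and in L1236 1.26 and 1.77. The part of other cell types in these values was not tested. Of 13 stromal and epithelial markers, 2 were tested and both rose (against 17.0% of all genes tested), and COL1A1 passed the filter through KM-H2 alone. The members were COL1A1 with 1.06 and 3.67 and VIM with 943 and 900.1 against 469 and 423 in Reh and 0.207 and 0.118 in Namalwa. The call of VIM was lost with the 4 controls as 1 group (adjusted p = 0.235). COL1A2, COL3A1, DCN, CDH5, EPCAM and KRT19 were at 0 in both KM-H2 libraries.

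In 2 genes both KM-H2 libraries lay above all 4 controls by at least 1 on the log2 scale while all 4 libraries of L428 and L1236 lay below them by at least 1. TPM2, a tropomyosin, had 172 and 111 FPKM in KM-H2, 2.72 to 4.97 in the controls and 0 to 0.0739 in L428 and L1236. ITGB2, the beta-2 integrin of leucocytes and the partner of ITGAM and ITGAX, had 22.6 and 30.5, 2.74 to 6.85 and 0.0639 to 0.121. After PMA, Reh had 574 and 470.4 FPKM of ITGB2. With the same gaps, no gene was lower in KM-H2 and higher in both others. With a pseudocount of 0.1 these counts were 6 and 1. Without a minimum gap, all 4 libraries of L428 and L1236 lay on the opposite side of the controls for 42 of the 2268 genes called higher. The same held for 23 of the 1637 called lower.

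Called genes were also placed along the chromosomes, which no rule had used. Of the genes tested, 12922 had a GRCh37 position. The X chromosome held 23 of 310 placed KM-H2-only higher genes (7.42%), 18 of 157 with a gap of at least 1 (11.5%) and 424 of all placed genes (3.28%), and 10 of the 23 were of the cancer-testis families counted above. Among genes that passed the filter through KM-H2 alone, 6.64% were on X. In runs of at least 3 neighbouring tested genes called the same way, 499 genes lay in 134 runs of rises, 198 of them genes that passed the filter through KM-H2 alone, and 288 in 74 runs of falls.

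The longest run of rises held 11 genes of the beta-globin and olfactory receptor cluster at chr11:5274418-5526882. All 11 passed the filter on low values through KM-H2 alone and 9 met the KM-H2-only rule, so their calls and their adjacency among tested genes are a description. HBE1, the embryonic globin, had 62.6 and 158 FPKM in KM-H2 and at most 0.257 elsewhere, and was 6.60 ± 0.36 higher on the log2 scale. The olfactory receptor OR51B5 had 37.4 and 79.1, and HBG2, a fetal globin, 12.3 and 30. The other 8 genes, all olfactory receptors, had between 1.1 and 9.05 FPKM in KM-H2 and were at or near 0 in the other libraries. HBB, the adult globin of the same cluster, was listed at 0 in all 12 libraries, and HBG1, nearly identical to HBG2, had 1.29 and 0 in KM-H2. HBD, the minor adult globin of the cluster, had 0.44 and 0.553 in KM-H2 and more in L428 and L1236, at 2.41 and 5.23 and 1.65 and 3.15. On the same strand, the annotated spans of 6 of the 11 genes overlap another gene, HBE1 and OR51B5 among them. The plus-strand olfactory receptors lie inside the spans of HBG2 and HBE1, which are on the minus strand. Since the use of strand in the counting is not stated, reads of 1 transcript may be counted for any of the 11 genes.

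**Figure D5:**
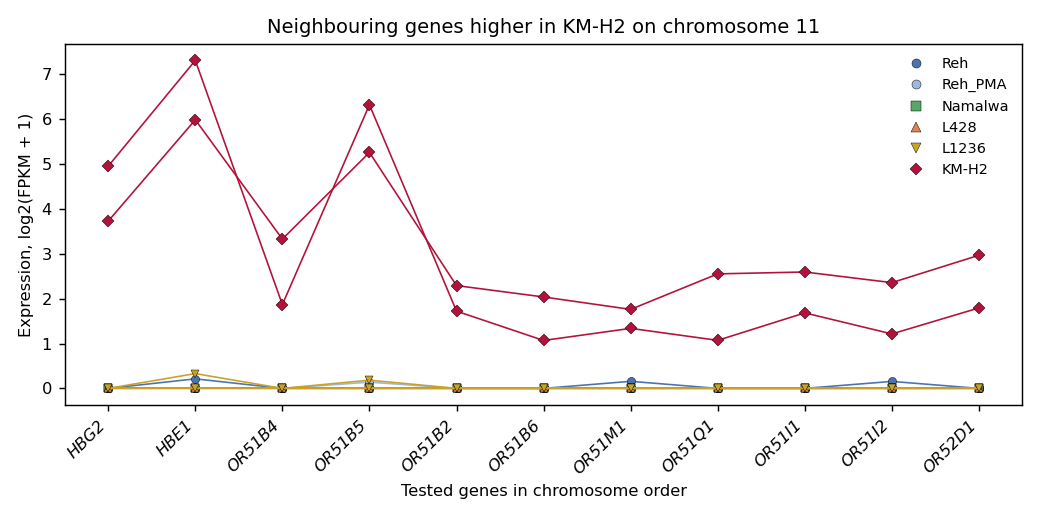
Expression as log2(FPKM + 1) (y axis) of the 11 neighbouring genes on chromosome 11 in chromosome order (x axis), 1 line a library. The KM-H2 libraries (red) peak at HBE1 and OR51B5 and stay above 1 across the run, and the other 10 libraries stay near 0.

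Of the 134 runs of rises, 124 held 3 to 5 genes and 9 held 6 to 8. One of these on chromosome 15 ran from CD276 through LOXL1, STOML1, PML and STRA6 to SEMA7A, and another on chromosome 7 from FOXP2 through MDFIC, TFEC, TES, CAV2 and CAV1 to MET. TPM2 lay in a run of 6 on chromosome 9. The longest run of falls held 15 genes of the protocadherin gamma cluster at chr5:140739561-140892544, whose annotated spans all overlap another gene of the run, so their values may share reads. PCDHGC3 had 0 and 0 FPKM in KM-H2 and 10.6 to 27.8 in the controls and fell by 4.20 ± 0.19 on the log2 scale (adjusted p = 1.58e-05). Zinc finger clusters on chromosome 19 gave runs of 9, 7 and 6 falling genes, and a histone cluster on chromosome 6 a run of 7.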

How the data were processed

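Total RNA of 5 untreated cell lines and of PMA-treated Reh was depleted of ribosomal RNA and sequenced as stranded libraries, in duplicate, on HiSeq or NextSeq machines. Which library ran on which machine, and the gene annotation, are not given in the sources used here. The authors deposited 1 table of FPKM values for 26210 genes. Per the submitters' processing notes the tools included TopHat2 2.0.11, Cuffnorm 2.2.1 and bedtools on build hg19. The table had 12 columns of values, all used, and none of the authors' comparisons. Cuffnorm scales libraries to each other, so FPKM gives no read totals. Relative depth was read from the steps between values under 0.1 FPKM. Absolute depth is unknown, so no counting interval was made. Whether strand was used in the counting is not stated, so overlapping and antisense genes are uncertain.

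Genes with at least 1 FPKM in at least 2 of the 6 libraries of KM-H2, Reh and Namalwa were tested as log2(FPKM + 1). limma 3.58.1 (R 4.3.3) was fitted with 3 groups, which left 3 residual degrees of freedom, and KM-H2 was set against the mean of both controls. Errors are the standard errors of this fit, and p-values were adjusted by the Benjamini-Hochberg method over all 13378 genes. The script was tested on simulated data. Genes were selected for naming from the 15 higher and 10 lower KM-H2-only genes with the widest gaps and the 10 largest rises and falls. Added to these were up to 4 called members of each list with others a sentence needed, and the LTR-linked genes. Genes in opposite directions and members of the longest runs were also selected. Not all of them are named in the text, and genes singled out after their values were seen are marked there. Names of small RNAs, immunoglobulin and T-cell receptor segments and sex-specific genes were passed over. Members and lists were chosen with earlier results of these data known.

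Positions came from GENCODE on GRCh37, which is hg19. Promoters came from RefSeq on GRCh38.p14. Only 67.4% of the KM-H2-only higher genes, 223 of 331, matched a promoter, under the 80% needed, so promoter motifs were not compared. The alternatives tried were another pseudocount, filter, scaling, control grouping, minimum difference and range, all 12 libraries in 1 fit, the library number as a block, and each library left out. Python 3.11.15 was used for joins and plots. Some members of the lists are counted but not reported here by name.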

Additional observations from a re-analysis of the deposited data

Results flagged for a closer look

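TPM2 and ITGB2 lay above the controls in both KM-H2 libraries and below them in all 4 libraries of L428 and L1236. For TPM2 the difference from the controls was 4.90 on the log2 scale in KM-H2 and -2.19 in the other Hodgkin lines, which leaves 7.09 between them. For ITGB2 it was 2.42 and -2.22, which leaves 4.64. The difference between the lines was not tested, since both were found by the separation itself. Groups of 2 libraries allow no check for a single library far from the others.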

How the results depend on the processing

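The number of genes called against the controls, 2268 higher and 1637 lower, became 1451 higher with at least 5 FPKM in 2 libraries and 2476 lower with no minimum difference. The KM-H2-only rule was less stable. The 331 higher genes became 615 with no filter, 166 with at least 5 FPKM (72 in place of 174 with a gap of at least 1), 131 with centred values (15 with a gap), 497 with the control range widened by 0.1 and 1147 with 0.5 (386 with a gap). The 114 lower genes became 239 and 987 under the same widening, and the 12 with a gap became 20 and 85. Without L428 library 1 and L1236 library 1, chosen after seeing the data, the counts were 560 higher, 294 lower and 27 lower with a gap. The cause was not tested, except that fewer or more genes enter under another filter or range.

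Leaving out 1 library at a time gave 2167 to 2431 genes called higher and 1531 to 1800 lower, 98 to 106 list members higher and 54 to 60 lower, 293 to 440 KM-H2-only genes higher and 90 to 202 lower, and 161 to 212 higher and 9 to 23 lower with a gap. Of the lower counts, 199 and 202 came without KM-H2 library 0 and 1, and 182 and 184 without L428 library 0 and 1. The 2 genes in opposite directions with a gap of at least 1 became 6, and the 0 in the other direction became 1, with a pseudocount of 0.1.

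The duplicate numbers were not taken as pairs, since 1 of the 3 correlations of their deviations was under 0.1: 0.0516 between KM-H2 and Reh, 0.256 between KM-H2 and Namalwa and 0.380 between Reh and Namalwa. Among the other lines it was highest between L428 and L1236, at 0.682. A replicate block gave 2278 genes higher and 1644 lower, and 105 and 55 list members. Over the 138 genes selected for naming and 11 settings, 1473 results kept their direction and their side of an adjusted p of 0.05 in limma. Of the others, 42 were no longer under 0.05 and 2 came under it, which alone does not make a call. The sign changed in 1, NFIX, at 0.17 with a pseudocount of 0.1 (adjusted p in limma = 0.708). KM-H2 was the shallowest line, which limits what can be said of genes near 0 there.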
